A study of Drosophila melanogaster with 15 samples.

Results

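The rows examined here are those of proteasome subunit genes, found by name. A row was taken when the gene names it lists hold a symbol that starts with Pros, Rpn or Rpt, apart from Prosap, which is another gene, and when every one of the 15 libraries gave it the status OK. Of 14124 rows, 10776 carry a gene name and 10350 of these had that status throughout. Among the 10350 loci there were 11 proteasome rows. A further 2 rows matched by name and failed the status filter, *Rpn2* and a row shared by *Rpn6*, *Spred* and *kn*. The RefSeq gene table for Release 6 holds 48 genes whose current symbols start with Pros, Rpn or Rpt, so most of the complex was not analysed here, and neither was *Rpn3*. The 11 rows comprise 5 general subunits and 6 paralogs. The general subunits are 4 alpha subunits of the core and 1 ATPase of the base. The paralogs are 2 whose current symbols carry the testis suffix T and 4 whose symbols carry the suffix R. No core beta subunit of the general set and no lid subunit is among them.

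The proteasome degrades proteins that have been tagged with ubiquitin. Its 20S core is a barrel of stacked rings, in which outer rings of alpha subunits gate the entry and inner rings of beta subunits carry the cutting sites. A 19S cap sits on the core, with a base whose ring of Rpt ATPases unfolds the substrate and a lid of Rpn subunits where ubiquitin is removed. In *Drosophila*, many subunits have a duplicate gene, and a number of these duplicates are known for expression in the male germ line, where some take the place of the general subunit as sperm form. The proteasome is also part of the response to heat, since it clears misfolded proteins.

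RNA came from pools of about 10 whole adult males, 1 week old, of 5 genotypes under 3 conditions, with 1 library for each pairing of genotype and condition. Control flies were CantonS/w[1118]. The mutants affect members of the dystrophin glycoprotein complex (DGC) or its signaling. The libraries labelled *Dg* carried Dg[O55] over Dg[O86], the *Dys* flies were homozygous for Df(3R)Exel6184, the *Syn1* flies carried Df(3L)BSC450 over deltaSyn1[5-2] and the *Nos* flies Df(2L)BSC230 over deltaNos15. A deficiency removes neighboring genes too, and the labels do not say whether control and mutants share a genetic background. Unstressed flies were kept for 5 days at 25°C on standard food, temperature stress was 5 days at 33°C, and metabolic stress was 4 days on yeast paste alone, without sugar. No group has a replicate. The error of a row comes from how far all 15 libraries depart from the sum of a genotype and a condition effect. It is pooled over genotypes and conditions, so each mutant has the same standard error at a given row.

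Values are the deposited FPKM, that is fragments scaled to transcript length and to the mapped fragments of the library, which allow levels of different genes to be compared per length. The absolute depth of each library is not known, since the Materials and Methods give only an average of mapped reads over the samples. Relative depth, read from the steps between low values, ranged from 0.798 to 1.12 of that of the unstressed control library. *Syn1* and *Dys*, at the row with the highest mean among those that list the gene alone, were at 0 in all 3 libraries labelled for them, although a row shared by *Dys* and *CG6255* was at 81.6 to 89.2 FPKM in the *Dys* libraries and at 49.8 to 74.5 in control. The row of *Nos* with *CG6700* was at 17.7 to 27.2 FPKM in the *Nos* libraries and at 31.2 to 45.4 in control. *Dg* was at 12.5 to 19.3 FPKM in the libraries labelled *Dg* and at 12.9 to 14.2 in control, so its level does not check that label. Of 24 testis markers, 13 have a row, and their summed level was 2407 to 4466 FPKM over the libraries, while the 6 analysed female germline and yolk markers summed to at most 12.5 FPKM.

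The 11 proteasome rows together held 310 to 504 FPKM, or 0.116% to 0.207% of the FPKM on named loci. *Prosbeta5R* (current symbol *Prosbeta5R1*, 2R, 19195912 to 19197397 as listed with the values, build not stated), a paralog of the beta5 subunit, was the most abundant row, at 97.0 ± 21.5 FPKM (SD over the 15 libraries). It was followed by *Pros45* (*Rpt6*, X, 21186878 to 21190501), an ATPase of the base, at 56.8 ± 7.37 FPKM, and by *Pros28.1* (*Prosalpha4*, X, 16160930 to 16171628), the alpha4 subunit, at 54.9 ± 16.8 FPKM. *Pros45* and *Pros28.1* were apart by less than their spread, and *Prosbeta5R* stood above both in its mean. In the metabolically stressed control library, however, *Prosbeta5R* was at 68.2 FPKM, below *Pros45* at 72.9 and *Pros28.1* at 81.3 FPKM. *Pros25* (*Prosalpha2*, 3R, 8252193 to 8265054), *Prosbeta4R2* (2L, 2645172 to 2659839), *Prosalpha5* (2R, 13298939 to 13307209) and *Pros28.1B* (*Prosalpha4T2*, a paralog of alpha4 whose row also lists *Ssl*, 2R, 20381797 to 20391973) had means between 26.6 and 32.4 FPKM. No neighbors in this order differed by more than the larger of their SDs. *Prosbeta2R1* (X, 5702627 to 5705241), a paralog of beta2, was at 19.2 ± 5.77, *Rpt4R* (3L, 11934650 to 11939533), a paralog of the base ATPase Rpt4, at 16.6 ± 6.82, and *Prosalpha3T* (3R, 26947268 to 26949318), a paralog of alpha3, at 13.2 ± 4.35 FPKM. *Pros35* (*Prosalpha6*, the alpha6 subunit, in a row that also lists *CG4908*, 2L, 10197655 to 10227438) was lowest at 8.71 ± 2.42 FPKM. *Prosbeta2R1*, *Rpt4R* and *Prosalpha3T*, as neighbors, were again apart by less than their SD. Fewer cells of a type and less RNA per cell cannot be told apart in these libraries.

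**Figure D1:**
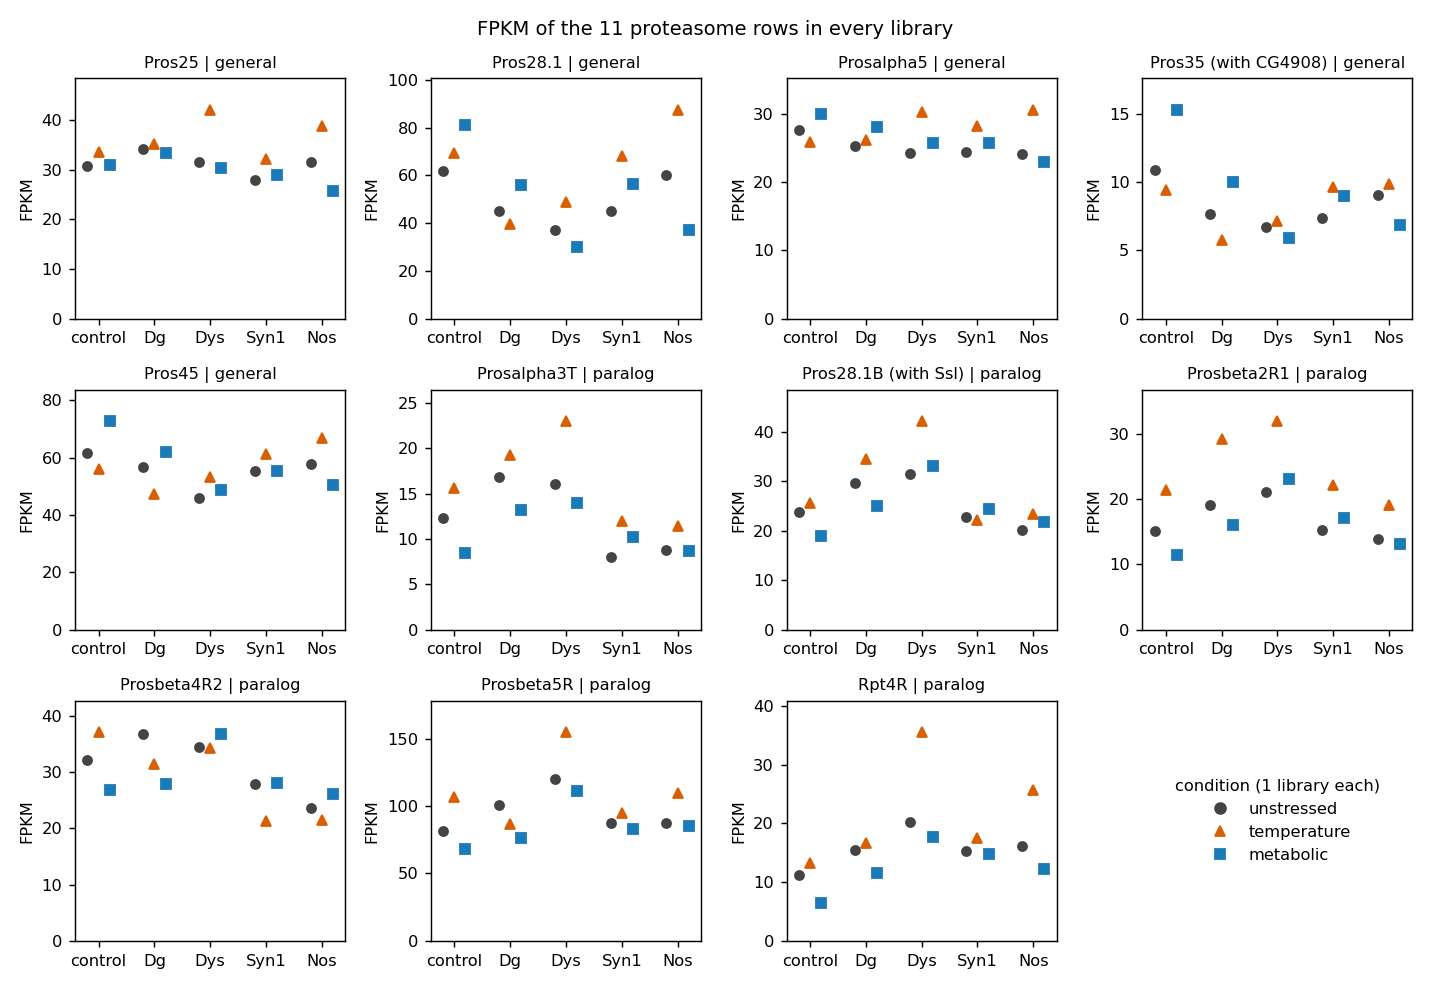
FPKM of each proteasome row (vertical axes, linear from 0) in the 15 libraries, arranged by genotype, with 1 point per library and the condition given by color and shape. The *Rpt4R* points of the 4 mutants mostly lie above those of control (6.38 to 13.2 FPKM) and reach 35.5 in the *Dys* library at 33°C, whereas *Prosalpha5* stays between 23.0 and 30.6 FPKM in every library.

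The rows differed in how much they varied. *Prosalpha5*, *Pros25* and *Pros45* had the lowest SD of log2(FPKM + 1) over the 15 libraries, at 0.12, 0.17 and 0.18, below the median of 0.32 over all 10350 loci and of 0.34 over the 3880 loci whose mean was at or above that of the lowest proteasome row. *Rpt4R*, *Pros28.1* and *Prosalpha3T* varied most, at 0.52, 0.44 and 0.43. The *Dys* library at 33°C was the highest of all 15 for 5 of the 6 paralogs, the exception being *Prosbeta4R2*, and the metabolically stressed control library was the lowest for 4 of the 6.

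To ask how the mutants differed from control, each genotype was compared with control over the 3 conditions in one limma fit, and a locus was called at a Benjamini-Hochberg adjusted p under 0.1 over all 10350 loci. All log2 ratios below are on the scale of log2(FPKM + 1). The 4 comparisons share the 3 control libraries, so they are not independent of each other.

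The proteasome rows moved most in *Dys* mutants, where the called paralogs were all higher and the called general subunits all lower. In this comparison 5 of the 6 paralogs were higher and 3 of the 5 general subunits were lower, which makes 8 of 11 called. Of all loci, 42.0% were called, 20.3% as higher and 21.6% as lower. The median log2 ratio was 0.61 for the paralogs and -0.35 for the general subunits. Among rows that list 1 gene, these medians were 0.59 and -0.20. No general subunit was called higher and no paralog lower.

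*Rpt4R* changed most. In the unstressed, temperature-stressed and metabolically stressed libraries, in this order, its level was 11.2, 13.2 and 6.38 FPKM in control and 20.3, 35.5 and 17.6 FPKM in *Dys* mutants. All 3 *Dys* libraries lay above all 3 control libraries, with a log2 ratio of 1.17 ± 0.17 (SE; limma, adjusted p = 0.00087). *Prosbeta2R1* was at 15.1, 21.4 and 11.4 FPKM in control and at 21.0, 31.9 and 23.0 in *Dys* mutants. It was higher under each condition by 0.65 ± 0.12 on average (limma, adjusted p = 0.0034), although the unstressed *Dys* library stood below the control library at 33°C.

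*Prosbeta5R*, the most abundant row, was at 81.8, 106.9 and 68.2 FPKM in control and at 120.0, 154.9 and 110.9 in *Dys* mutants, again without overlap, with a log2 ratio of 0.59 ± 0.12 (limma, adjusted p = 0.0067). *Pros28.1B* was at 23.7, 25.5 and 18.98 FPKM in control and at 31.5, 42.2 and 33.0 in *Dys* mutants, also without overlap (0.62 ± 0.13, adjusted p = 0.0055). *Prosalpha3T* overlapped between the groups, at 12.3, 15.6 and 8.46 FPKM in control and 16.1, 23.0 and 13.9 in *Dys* mutants, and was called at 0.52 ± 0.14 (limma, adjusted p = 0.019). *Prosbeta4R2*, the remaining paralog, ranged from 26.8 to 37.1 FPKM in control and from 34.3 to 36.7 in *Dys* mutants, with a log2 ratio of 0.14 ± 0.15 (limma, adjusted p = 0.50).

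Among the general subunits, *Pros28.1* had 61.9, 69.4 and 81.3 FPKM in control and 37.0, 48.9 and 29.9 in *Dys* mutants. No *Dys* library reached the lowest control library, and the log2 ratio was -0.88 ± 0.27 (limma, adjusted p = 0.030). *Pros45* had 61.6, 56.2 and 72.9 FPKM in control and 45.9, 53.3 and 48.8 in *Dys* mutants. The groups did not overlap here either, though the gap at 33°C was small, and the log2 ratio was -0.35 ± 0.15 (limma, adjusted p = 0.085). *Pros35* ranged from 9.44 to 15.3 FPKM in control and from 5.93 to 7.15 in *Dys* mutants, a log2 ratio of -0.74 ± 0.21 (limma, adjusted p = 0.024). The remaining alpha subunits, *Pros25* and *Prosalpha5*, had log2 ratios of 0.11 ± 0.11 and -0.06 ± 0.12 and were not called. Over the 11 rows, 3 paralogs lay wholly above control in the *Dys* libraries, as did 16.3% of all loci, and 3 general subunits lay wholly below it, as did 17.8%.

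Without the unstressed libraries, 4 paralogs and no general subunit were called in *Dys* mutants. Of all 10350 loci, 687 were then called higher and 761 lower, beside 2104 and 2240 with all libraries. Without the metabolic libraries, *Pros45* and *Pros35* were not called, with log2 ratios of -0.25 and -0.49 (limma, adjusted p = 0.32 and 0.11). Of all loci, 1200 were called higher and 1329 lower in that setting. *Pros45* lost its call in 6 of 12 alternatives.

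**Figure D2:**
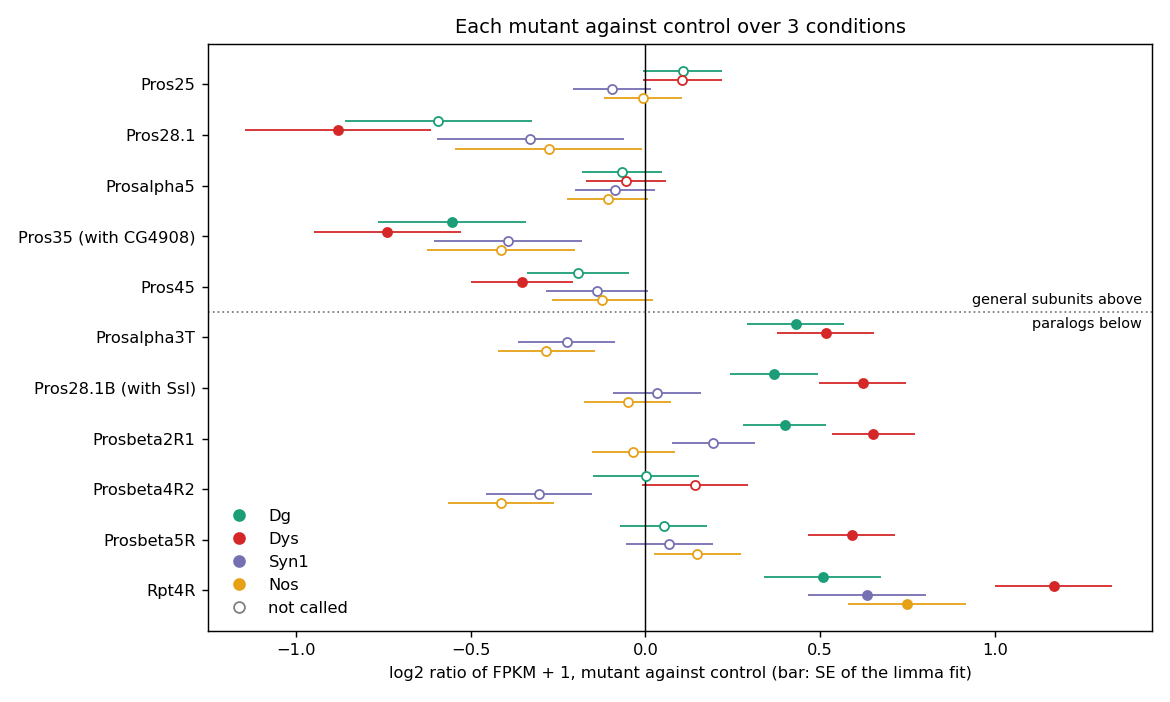
Log2 ratio of FPKM + 1 of each mutant against control over the 3 conditions (horizontal axis) for the 5 general subunits and the 6 paralogs, with the SE of the limma fit as bars, filled points for called rows and open points for the others. Paralogs called in *Dys* mutants lie between 0.52 and 1.17, called general subunits between -0.88 and -0.35, and *Rpt4R* is the one row that was called in every mutant.

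In the libraries labelled *Dg*, 5 of 11 rows were called, 4 as higher and 1 as lower, where 24.6% of all loci were called, 12.4% as higher and 12.3% as lower. The rows that rose were the paralogs *Prosbeta2R1* (19.1, 29.1 and 16.0 FPKM), *Prosalpha3T* (16.8, 19.3 and 13.2 FPKM), *Rpt4R* (15.4, 16.7 and 11.6 FPKM) and *Pros28.1B* (29.6, 34.4 and 24.9 FPKM), each given in the order unstressed, temperature and metabolic. All of these ranges overlapped those of control, but each library was above the control library of its own condition. The log2 ratios were 0.40 ± 0.12, 0.43 ± 0.14, 0.51 ± 0.17 and 0.37 ± 0.13, with adjusted p from limma of 0.045, 0.060, 0.064 and 0.071. *Pros35* was lower by -0.55 ± 0.21 on the log2 scale (limma, adjusted p = 0.0997), at 5.75 to 10.0 FPKM. *Pros28.1*, at 45.0, 39.6 and 55.8 FPKM, lay below all control libraries, as did 12.8% of all loci, but was not called (-0.59 ± 0.27, limma, adjusted p = 0.15). The SD of its difference from control over the 3 conditions was 0.18 here and 0.75 in *Nos* mutants, and the SE is shared by both. *Prosbeta5R* and *Prosbeta4R2*, at 76.3 to 100.8 and 27.9 to 36.8 FPKM, had log2 ratios of 0.05 ± 0.12 and 0.00 ± 0.15. The count of calls fell to 0 without the unstressed libraries and to 1 without the temperature libraries or without the metabolic libraries. Among all 10350 loci, 167 were called higher and 246 lower without the unstressed libraries, beside 1280 and 1268 with all libraries. These counts were 1213 and 1165 without the temperature libraries and 741 and 809 without the metabolic libraries.

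*Rpt4R* was the only row called in *Syn1* mutants, where 10.6% of all loci were called (4.95% as higher), and the only row called in *Nos* mutants, where 10.3% were (4.24% as higher). Its level was 15.2, 17.5 and 14.8 FPKM in *Syn1* mutants and 16.1, 25.6 and 12.3 FPKM in *Nos* mutants. The *Syn1* libraries all lay above the control libraries, as did 8.78% of all loci, while the metabolically stressed *Nos* library was below the control library at 33°C. The log2 ratios were 0.63 ± 0.17 and 0.75 ± 0.17 (limma, adjusted p = 0.045 and 0.025). Both calls ended without the unstressed libraries, which left 0 called rows in either mutant. Of all 10350 loci, 115 were then called higher and 143 lower in *Syn1* mutants, beside 512 and 590 with all libraries. In *Nos* mutants these counts were 54 and 72, beside 439 and 631. Both *Rpt4R* calls also ended without the metabolic libraries. There, 386 loci were higher and 499 lower in *Syn1* mutants, and 299 and 432 in *Nos* mutants. The log2 ratio of *Rpt4R* was then 0.40 in *Syn1* and 0.70 in *Nos* mutants (limma, adjusted p = 0.30 and 0.11). The 1 row called there was a lower one, *Prosalpha3T* in *Syn1* (-0.46 ± 0.12) and *Prosbeta4R2* in *Nos* mutants (-0.60 ± 0.15, limma, adjusted p = 0.099 and 0.095). *Prosbeta4R2* was at 23.6, 21.4 and 26.2 FPKM in *Nos* mutants, below every control library, as were 9.05% of all loci, with a log2 ratio of -0.41 ± 0.15 that was not called (limma, adjusted p = 0.15). The median log2 ratios were -0.14 for the general subunits and 0.05 for the paralogs in *Syn1* mutants, and -0.12 and -0.04 in *Nos* mutants.

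*Rpt4R* was thus called higher in all 4 mutants. All 12 mutant libraries were above the control library of the same condition, by 0.32 to 1.36 on the log2 scale. Without the metabolic libraries the call remained in *Dys* mutants and not in the other 3. Because each of these ratios rests on the same 3 control libraries, a low value in those would enter all 4 comparisons, and the metabolically stressed control library, at 6.38 FPKM, was the lowest of the 15.

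Mutants were also compared with each other in the same fit, which does not draw on the control libraries for the difference. These 6 comparisons were chosen after the values had been seen. All 6 paralogs were higher in *Dys* than in *Syn1* mutants, as were 21.3% of all loci, and no general subunit was called, where 41.0% of all loci were called in either direction. The differences ran from 0.45 ± 0.15 for *Prosbeta4R2* to 0.74 ± 0.14 for *Prosalpha3T* on the log2 scale (limma, adjusted p = 0.048 and 0.0048). All 6 paralogs were also higher in *Dys* than in *Nos* mutants, as were 22.0% of all loci, by 0.42 ± 0.17 for *Rpt4R* to 0.80 ± 0.14 for *Prosalpha3T* (limma, adjusted p = 0.074 and 0.0025), again with no general subunit called (1 had an unadjusted p under 0.05) where 44.6% of all loci were. Both comparisons share the 3 *Dys* libraries. Leaving out the unstressed libraries reduced these counts of 6 to 0 against *Syn1* and to 3 against *Nos*, and leaving out the temperature libraries reduced the first to 2. Without the unstressed libraries, 406 of 10350 loci were higher and 446 lower in *Dys* than in *Syn1* mutants, beside 2206 and 2039 with all libraries. Against *Nos* these counts were 657 and 741, beside 2279 and 2332. Without the temperature libraries, 950 were higher and 849 lower in *Dys* than in *Syn1* mutants.

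The libraries labelled *Dg* were higher than *Nos* for 4 paralogs (14.5% of all loci higher, 26.6% in either direction) and higher than *Syn1* for 2 (15.3% higher, 28.5% in either direction), *Prosalpha3T* and *Pros28.1B*. *Prosalpha3T* had the largest differences of the rows, at 0.71 ± 0.14 and 0.65 ± 0.14 (limma, adjusted p = 0.0071 and 0.0095). *Prosbeta5R* and *Rpt4R* were lower in the libraries labelled *Dg* than in *Dys* (-0.54 ± 0.12 and -0.66 ± 0.17, limma, adjusted p = 0.014 and 0.021; 11.6% of all loci were lower and 23.9% were called in either direction). No row was called between *Syn1* and *Nos*, where 6.11% of all loci were; none had an unadjusted p under 0.05 there either. Without the unstressed libraries no row was called between *Dg* and *Syn1* or *Nos*, and 1 row was called between *Dg* and *Dys*. Of all 10350 loci, 241 were then higher and 288 lower in *Dg* than in *Syn1*, beside 1582 and 1364 with all libraries. These counts were 160 and 187 against *Nos*, beside 1505 and 1245, and 337 and 371 against *Dys*, beside 1271 and 1204.

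Ratios taken within a library do not depend on how libraries were scaled to each other. The summed FPKM of the 6 paralogs was 0.609 to 1.13 times that of the 5 general subunits in control, 0.897 to 1.41 times in the libraries labelled *Dg* and 1.67 to 1.77 times in *Dys* mutants. It was 0.952 to 1.10 times in *Syn1* and 0.901 to 1.17 times in *Nos* mutants. The 3 *Dys* libraries therefore stood above the other 12. The alpha4 subunit is represented by both its general gene and a paralog, whose row also lists *Ssl*. This *Pros28.1B* row amounted to 0.383, 0.368 and 0.234 of *Pros28.1* in unstressed, temperature-stressed and metabolically stressed control flies. The same ratio was 0.852, 0.862 and 1.10 in *Dys* mutants and 0.658, 0.869 and 0.447 in the libraries labelled *Dg*, all above control. In *Syn1* mutants it was 0.503, 0.326 and 0.433, and in *Nos* mutants 0.337, 0.267 and 0.590, which overlapped control.

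Testis markers, like most of the paralogs, were called higher in *Dys* mutants and in the libraries labelled *Dg*. Of the 13 with a row, 9 were called higher in *Dys* mutants (median log2 ratio 0.58), where 20.3% of all loci were. In the libraries labelled *Dg* 6 were called higher (0.37), where 12.4% of all loci were. None was called higher in *Syn1* (0.04) or *Nos* mutants (-0.07), where 4.95% and 4.24% of all loci were. In *Nos* mutants 1 marker was called lower, as were 631 of the 10350 loci. Their summed level was 2407 to 3128 FPKM in control, 3318 to 3756 in the libraries labelled *Dg*, 3930 to 4466 in *Dys*, 2637 to 3485 in *Syn1* and 2604 to 3219 in *Nos* mutants, and no marker was at 0 in any library. Between mutants, 9 of the 13 were called higher in *Dys* than in *Syn1* and 10 higher in *Dys* than in *Nos*. Of all loci, 21.3% and 22.0% were called higher in these comparisons. Of 8 flight muscle markers, 6 have a row, and 4 of these were called lower in *Dys* mutants (median -0.53), where 21.6% of all loci were. None of the 6 was called in *Dg*, *Syn1* or *Nos*, where 24.6%, 10.6% and 10.3% of all loci were called in either direction. Of 12 accessory gland markers, 4 have a row, and all 4 were called lower in *Nos* mutants (median -1.98), where 631 of the 10350 loci were. None of the 4 was called in *Syn1* mutants (-0.68). *Dys* mutants (-1.03) and the libraries labelled *Dg* (-1.14) each had 1 called lower, where 21.6% and 12.3% of all loci were. The accessory gland sum ran from 230 FPKM in the metabolically stressed *Nos* library to 2619 in the metabolically stressed control library. The part of any of these tissues in the proteasome results was not tested. In *Syn1* and *Nos* mutants *Rpt4R* was called higher and no testis marker was, and a link between them was not tested. The metabolically stressed control library was the lowest of the 15 for *Rpt4R* (6.38 FPKM) and for the testis marker sum (2407 FPKM).

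**Figure D3:**
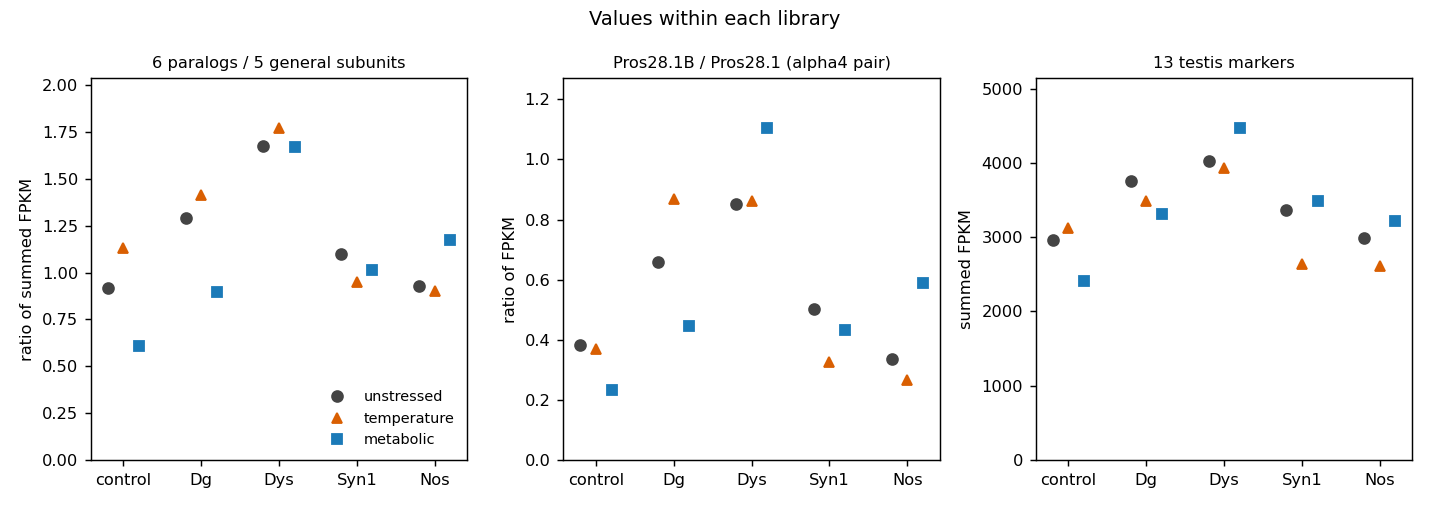
Values within each of the 15 libraries by genotype and condition: the summed FPKM of the 6 paralogs over that of the 5 general subunits (left), the ratio of *Pros28.1B* to *Pros28.1* (middle) and the summed FPKM of 13 testis markers (right), all on linear axes from 0. In all 3 panels the *Dys* libraries hold the highest values apart from 1 *Dg* library in the middle panel, where the *Dg* library at 33°C is at 0.869. The *Pros28.1B* row also lists *Ssl*.

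Under temperature stress, 3 paralogs rose and no general subunit was called. The comparison asks how 5 days at 33°C changed each row over the 5 genotypes, and 26.1% of all loci were called in it, 13.8% as higher. *Prosbeta2R1* rose from 15.1 to 21.4 FPKM in control, from 19.1 to 29.1 in the libraries labelled *Dg*, from 21.0 to 31.9 in *Dys*, from 15.2 to 22.1 in *Syn1* and from 13.8 to 19.02 in *Nos* mutants. The log2 ratio was between 0.43 and 0.58 in every genotype, with a mean of 0.52 ± 0.09 (limma, adjusted p = 0.0049). This was the most even response of the proteasome rows to heat, and it was called in all 12 alternatives.

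*Prosalpha3T* was at 12.3, 16.8, 16.1, 8.05 and 8.73 FPKM in unstressed control, *Dg*, *Dys*, *Syn1* and *Nos* flies and at 15.6, 19.3, 23.0, 11.9 and 11.4 FPKM at 33°C. It was higher at 33°C in 5 of 5 genotypes, by 0.37 ± 0.11 (limma, adjusted p = 0.038). *Rpt4R* was at 11.2, 15.4, 20.3, 15.2 and 16.1 FPKM unstressed and at 13.2, 16.7, 35.5, 17.5 and 25.6 FPKM at 33°C. It was also higher in all 5 genotypes, most in *Dys* and *Nos* (0.78 and 0.64) and by 0.11 to 0.22 in the others, with a mean of 0.39 ± 0.13 (limma, adjusted p = 0.063). Without the *Dys* libraries, or without the *Nos* libraries, only 1 row was called at 33°C. Of all 10350 loci, 837 were higher and 754 lower without the *Dys* libraries, and 869 and 754 without the *Nos* libraries. With all libraries, 1426 were higher and 1273 lower.

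The general subunits were not called at 33°C, although 4 of the 5 had a positive log2 ratio, with a median of 0.16 beside -0.01 over all loci. *Pros25* was higher in 5 of 5 genotypes, by 0.21 ± 0.09, and missed the threshold (limma, adjusted p = 0.12). *Pros28.1* had the largest value, 0.30 ± 0.21, but ranged from -0.18 in the libraries labelled *Dg* to 0.59 in *Syn1* mutants. *Pros45* and *Pros35* had log2 ratios of 0.03 ± 0.11 and 0.00 ± 0.16. Among the uncalled paralogs, *Prosbeta5R* and *Pros28.1B* had log2 ratios of 0.19 ± 0.10 and 0.18 ± 0.10, and *Prosbeta4R2* was the single paralog with a negative one (-0.11 ± 0.12). In all, 4 of the 11 rows were higher at 33°C in every genotype, as were 16.6% of all loci. The 13 testis markers had a median log2 ratio of -0.10 at 33°C, with 1 called higher and 2 lower, where 26.1% of all loci were called.

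**Figure D4:**
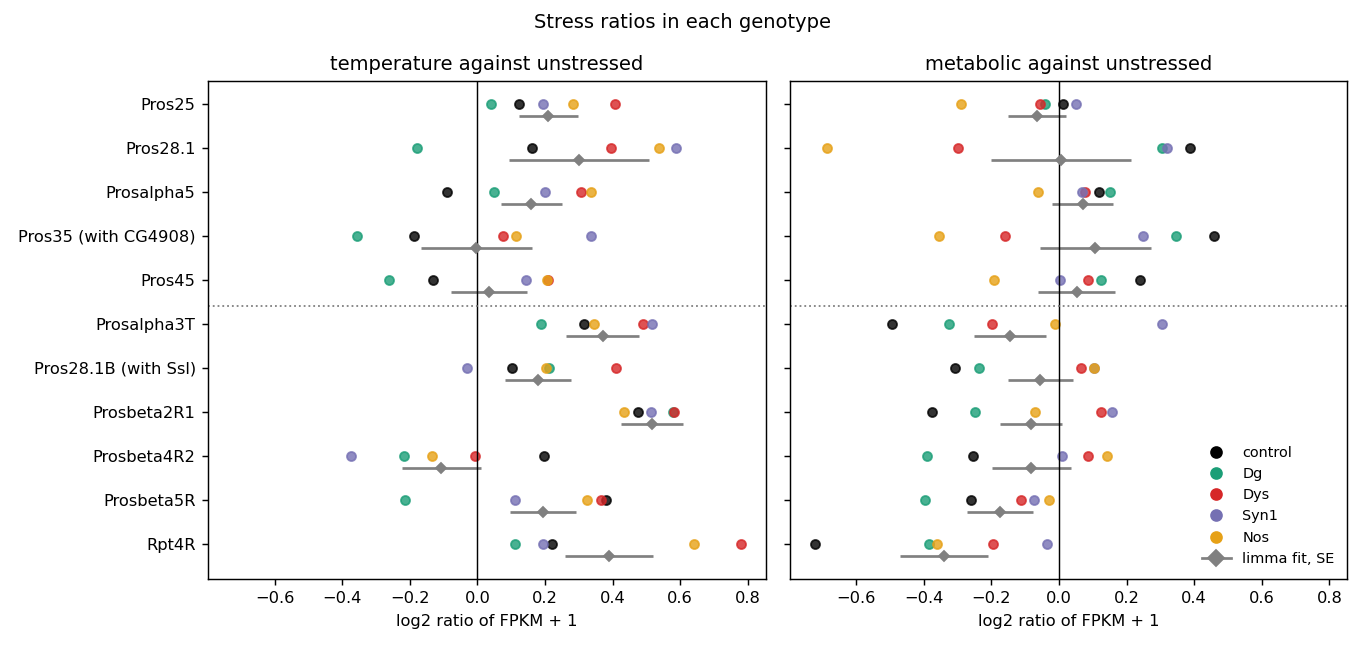
Log2 ratio of FPKM + 1 between the stressed and the unstressed library of each genotype (horizontal axes, 1 colored point per genotype) for temperature stress (left) and metabolic stress (right), with the limma estimate and its SE in grey. The *Prosbeta2R1* points at 33°C lie close together between 0.43 and 0.58, while on yeast paste the points of most rows fall on both sides of 0.

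Metabolic stress gave no called row (0 of 11, limma), where 2.93% of all loci were called, and 1 row had an unadjusted p under 0.05. That row was *Rpt4R*, which was lower on yeast paste in 5 of 5 genotypes, at 6.38, 11.6, 17.6, 14.8 and 12.3 FPKM in control, *Dg*, *Dys*, *Syn1* and *Nos* flies against 11.2, 15.4, 20.3, 15.2 and 16.1 unstressed. Its log2 ratio of -0.34 ± 0.13 ran from -0.72 in control to -0.03 in *Syn1* mutants and did not pass the test (limma, adjusted p = 0.25). *Prosbeta5R* was also lower in all 5 genotypes, by 0.03 to 0.40 on the log2 scale (-0.17 ± 0.10, limma, adjusted p = 0.47). A lower value in every genotype was found for 7.26% of all loci. All 6 paralogs had negative log2 ratios with a median of -0.11, and the general subunits had a median of 0.05, beside -0.02 over all loci. *Pros28.1* and *Pros35* were higher on yeast paste in control, *Dg* and *Syn1* flies and lower in *Dys* and *Nos*, with *Pros28.1* running from -0.68 in *Nos* mutants to 0.39 in control.

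The study asked whether responses to stress depend on the DGC. For metabolic stress, the paper describes proteasome proteins among the most prominent clusters of genes whose response in control was absent in the mutants. It names *Rpn3* among proteolysis genes that were upregulated. *Rpn3* was not analysed here, and the tests below use FPKM of other subunits where the paper used read counts, so they do not bear on that gene. A test of the response in control against the mean response in the 4 mutants called none of the 11 rows under either stress. It also called none of the 10350 loci (0% and 0% called; limma with 6 residual degrees of freedom). At an unadjusted p under 0.05 it found 0 rows, and 383 and 390 of all loci for temperature and metabolic stress. No row changed 2-fold in control while staying under a log2 ratio of 0.7 in each mutant, a rule that took in 0.763% of all loci at 33°C and 0.56% on yeast paste. The limma test against a 2-fold change, at unadjusted P under 0.1, called no row in any of the 6 comparisons. The smallest P was 0.17 for *Rpt4R* in *Dys* mutants, beside 2.57%, 3.87%, 1.86% and 1.95% of all loci that passed this test in *Dg*, *Dys*, *Syn1* and *Nos*, 0.792% at 33°C and 0.783% on yeast paste.

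Other genes of the ubiquitin and proteasome pathway were read from a list of 44, made up of 10 genes of assembly and regulation, 27 ubiquitin genes and delivery factors and 7 subunits whose symbols do not start with Pros, Rpn or Rpt. Of these, 20 were matched by name to an analysed row, none of them among the 7 subunits. *SkpA* was not matched, although the *Roc1a* row also lists it as *skpA*. In *Dys* mutants 4 of the 20 were higher and 6 lower, close to the 42.0% of all loci, with a median log2 ratio of -0.09. *Uch-L5* (listed as *Uch-L3*), a deubiquitinase of the 19S cap, had the smallest p, at 0.81 ± 0.11 (limma, adjusted p = 0.00048). *PI31*, a proteasome regulator, was higher by 0.46 ± 0.10, whereas the polyubiquitin gene *Ubi-p5E*, in a row shared with other genes, and the ubiquitin-conjugating enzymes *UbcD6* and *ben* were lower, by -0.54 ± 0.15, -0.83 ± 0.21 and -0.45 ± 0.15. All *UbcD6* values here are from a row shared with *CG14661*, which has the higher mean FPKM of its 2 rows. In the libraries labelled *Dg*, the ubiquitin-activating enzyme *Uba1* was higher (0.37 ± 0.10) and *UbcD6* lower (-0.58 ± 0.21), and the other 18 were not called, where 24.6% of all loci were. In *Syn1* mutants *Uch-L5* was higher (0.42 ± 0.11) and *Cul1*, a scaffold of ubiquitin ligases listed as *lin19* in a shared row, was lower (-0.40 ± 0.10), where 10.6% of all loci were called, and in *Nos* mutants 0 of the 20 were called and 0 had an unadjusted p under 0.05 (limma). At 33°C *ben* and *PI31* were higher (0.33 ± 0.11 and 0.20 ± 0.08), and *Npl4*, a cofactor of the ATPase TER94, and *UbcD6* were lower (-0.50 ± 0.12 and -0.48 ± 0.16), 4 of the 20 beside 26.1% of all loci. On yeast paste 0 of the 20 were called and 3 had an unadjusted p under 0.05 (limma).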

How the data were processed

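Whole male flies of 5 genotypes and 3 conditions were profiled by poly-A selected single-end RNA-seq of 100 bases, with 1 library each. The authors deposited FPKM values, with a status and a position for each row. The tool, build and annotation behind these FPKM are not given in the sources used here, so positions are printed as listed. Reads counted on transcripts, as described in the Materials and Methods, were not used here.

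Rows with a gene name and status OK in all 15 libraries (10350) were analysed as log2(FPKM + 1). A linear model with terms for genotype and condition was fitted to all of them with limma 3.58.1 in R 4.3.3 (8 residual and 2.76 prior degrees of freedom, median residual SD 0.193), with p-values adjusted by Benjamini-Hochberg over all loci. With no replicates, p-values rest only on the disagreement between conditions or genotypes, pooled over all 15 libraries. Stress responses in control were tested against the mean response of the mutants in a fit with 6 residual degrees of freedom. Current symbols and roles were assigned through RefSeq accessions listed with the rows. Joins and figures used Python 3.11.15, numpy 2.4.6, pandas 2.3.3 and matplotlib 3.10.9.

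The members, gene lists and tests were chosen with earlier results of these data known. Values in every control and *Dys* library are given for the most abundant row of each class. For each mutant against control and each stress, values in the libraries compared are given for up to 2 called rows with the smallest p. Where none was called, the 1 row with the smallest p was used. Of the related list, up to 5 called genes per comparison are named. Alternatives were a pseudocount of 0.1, a mean FPKM of at least 1, median-ratio scaling, an intensity trend in the prior variance, rows that list 1 gene, a threshold of 0.05, and leaving out each genotype or condition.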

Additional observations from a re-analysis of the deposited data

How the results depend on the processing

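The condition term already pairs each mutant library with the control library of its condition, and the genotype term each stressed library with its unstressed one. A replicate block could not be fitted, since each genotype and condition has 1 library. Of 224 checks of a named result under an alternative, 182 kept direction and side of the threshold, 42 lost the call and none reversed. With *Dg* against control, 5 called rows became 3 with a pseudocount of 0.1, 3 among rows that list 1 gene and 1 at an adjusted p of 0.05. When a genotype or condition was left out, the counts of called rows ranged from 0 to 5 for *Dg*, 4 to 8 for *Dys*, 0 to 1 for *Syn1* and 0 to 1 for *Nos* (the 1 row being *Rpt4R* except without the metabolic libraries), 1 to 4 for temperature stress and 0 to 0 for metabolic stress, and from 0 to 1 for the 2-fold test, whose single call came without the unstressed libraries. For the comparisons between mutants, chosen after seeing the data, the ranges were 1 to 2 for *Dg* and *Dys*, 0 to 4 for *Dg* and *Syn1*, 0 to 5 for *Dg* and *Nos*, 0 to 7 for *Dys* and *Syn1* and 3 to 7 for *Dys* and *Nos*. The 2 rows called between *Dg* and *Syn1* became 1 with a pseudocount of 0.1, with median-ratio scaling, among rows that list 1 gene and at an adjusted p of 0.05. Leaving out a condition leaves fewer libraries and residual degrees of freedom. For each mutant against control, the fewest of all loci were called without the unstressed libraries. *Rpt4R*, *Prosbeta2R1*, *Prosbeta5R* and *Pros28.1B* in *Dys* mutants kept their calls in every alternative, as did *Prosbeta2R1* at 33°C, whereas *Pros35* lost its call for *Dg* in 8 of 11 alternatives and *Pros28.1B* in 6 of 11. The lowest rows are near 6 FPKM, and no counting error was given, since the depth of each library is not known.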

Other observations

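A further 3 analysed rows hold proteasome genes under names the rule did not match, found after the values were seen. *CG31742* (current symbol *Prosbeta5R2*), a paralog of beta5, was at 40.2, 57.9 and 31.5 FPKM in unstressed, temperature-stressed and metabolically stressed control flies and at 68.3, 114.6 and 64.0 in *Dys* mutants. It was called higher in *Dys* (0.91 ± 0.15, limma, adjusted p = 0.0021), in the libraries labelled *Dg* (0.71 ± 0.15, adjusted p = 0.011) and at 33°C (0.46 ± 0.12, adjusted p = 0.023). *CG6789* (*Rpn13R*) was called higher in the same 3 comparisons, by 0.50, 0.36 and 0.25 (limma, adjusted p = 0.0092, 0.056 and 0.080). *Rpn13*, the general ubiquitin receptor, whose row also lists *AGO1*, was at 83.0 to 115.8 FPKM over the 15 libraries and was called in none of the 6 comparisons.

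The rows left out for their status had values only in part of the libraries. *Rpn2*, a scaffold of the base, was at 31.2 to 51.9 FPKM (median 41.1) in the 12 libraries where its estimate was OK. The row shared by *Rpn6*, *Spred* and *kn* was at 77.4 to 121.7 FPKM (median 102.8) in 11.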
